A study of Homo sapiens with 9 samples.

Results

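The 10 genes SRSF1, SRSF2, SRSF3, SRSF4, SRSF5, SRSF6, SRSF7, SRSF9, SRSF10 and SRSF11 encode SR proteins and were examined for RNA polymerase II (RNAPII) occupancy in HEK293, a cell line of human embryonic kidney origin. They are 10 of 20163 protein-coding genes in the annotation. They were selected on the gene family, and because the SRSF9 locus carried a peak with the second highest significance score among the 23698 peaks called upon shRNA5. The score of that peak is therefore given below as a description only. For each gene, every RNAPII peak that overlapped its GENCODE span (GRCh37), widened by 500 bp on each side, was taken from 5 peak lists.

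The lists came from RNAPII chromatin immunoprecipitation and sequencing (ChIP-seq) in 2 arms. In the hairpin arm, HEK293 cells had been infected with lentivirus that carried a control shRNA or one of the RECQL5 hairpins shRNA5 and shRNA7. The study's control virus was the vector without a hairpin. In the other arm, HEK293 T-REx cells had been transfected with a plasmid, pcDNA4/TO-RECQL5, that carries full-length RECQL5 behind a doxycycline-inducible promoter, had been selected with Zeocin, and received doxycycline at 0.0 or 1.0 ng/ml. RECQL5 is a DNA helicase that binds RNAPII. Peaks had been called against IgG libraries, with a separate one for each list of the hairpin arm and 1 from untreated cells for both doxycycline lists. The lists held 5287 peaks for the control shRNA, 23698 for shRNA5 and 32124 for shRNA7, and 47060 and 33900 for cells without and with doxycycline. Tags in peaks numbered 842310 to 6698771 per list. Median peak length was 1905, 1834 and 2024 bp in the hairpin arm but 622 and 689 bp in the doxycycline arm, so that differences in length and reach were taken only within an arm. The study's methods state more peaks for each hairpin arm library than the lists used here hold, with the widest gap, in relative terms, for the control shRNA. Whether an unlisted peak was not called, or its row is not among those used here, is not known, and all shares of genes with a peak and all counts between lists below rest on the lists as used. Each condition was a single library, and no difference below has a replicate check.

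SR proteins carry RNA recognition motifs and a tail of arginine and serine dipeptides. They bind exonic enhancers, help U1 snRNP and U2AF to recognise splice sites, and several also act in export, translation and decay of mRNA. SRPK and CLK kinases phosphorylate the tail, and the importer TNPO3 brings the proteins to the nucleus. Many SR genes contain a conserved "poison" exon or intron that, when spliced in an alternative way, sends the transcript to nonsense-mediated decay and so limits the protein's level. Several SR proteins are loaded on nascent transcripts, while RNAPII is still elongating.

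The members differ in size. SRSF2 spans 3.22 kb, SRSF1 6.43 kb, SRSF7 7.9 kb, SRSF6 8.15 kb and SRSF3 11.2 kb. SRSF10 spans 16.6 kb, SRSF4 34.2 kb, SRSF9 34.3 kb, SRSF5 45.1 kb and SRSF11 47.4 kb. In SRSF5 and SRSF9 most of the span belongs to other, longer transcripts, and the canonical transcripts measure only 4.86 and 8.08 kb. In SRSF11 the canonical transcript measures 31.7 kb. Where this matters, values for the canonical transcript are given beside those for the whole gene.

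The RNAPII peaks discussed below turned on where these genes start and where they end, and sequence is shown for both. The first set gives bases upstream of the start of SRSF3 and SRSF6, where the summit of the largest peak lay at the start in every list, and of SRSF4, which had no peak over its start upon shRNA7. They are RefSeq promoter sequences (GRCh38.p14) placed on GRCh37 by exact match and cut to the stretch that no annotated exon holds, and the coordinates are those of GRCh37. All are printed in the direction of transcription, SRSF3 and SRSF6 on the plus strand and SRSF4 on the minus strand. Capitals mark, on either strand, CCAAT as bound by NF-Y, GGGCGG as bound by Sp factors, TATAAA as bound by TBP, CACGTG as bound by E-box factors, TGACG as bound by CREB-like factors, CCGGAAG as bound by ETS factors and GCGCATGCG as bound by NRF1.
SRSF3, chr6:36561889-36562129: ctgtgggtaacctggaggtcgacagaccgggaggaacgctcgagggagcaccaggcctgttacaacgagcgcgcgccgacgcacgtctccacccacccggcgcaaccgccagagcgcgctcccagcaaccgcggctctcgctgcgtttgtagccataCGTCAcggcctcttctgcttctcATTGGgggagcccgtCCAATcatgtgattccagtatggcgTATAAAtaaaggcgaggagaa
SRSF6, chr20:42086286-42086532: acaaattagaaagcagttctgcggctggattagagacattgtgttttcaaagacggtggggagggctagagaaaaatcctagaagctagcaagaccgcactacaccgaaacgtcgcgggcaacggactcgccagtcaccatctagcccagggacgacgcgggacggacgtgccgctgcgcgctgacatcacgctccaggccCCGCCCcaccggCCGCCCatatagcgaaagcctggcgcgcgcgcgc
SRSF4, chr1:29508413-29508662: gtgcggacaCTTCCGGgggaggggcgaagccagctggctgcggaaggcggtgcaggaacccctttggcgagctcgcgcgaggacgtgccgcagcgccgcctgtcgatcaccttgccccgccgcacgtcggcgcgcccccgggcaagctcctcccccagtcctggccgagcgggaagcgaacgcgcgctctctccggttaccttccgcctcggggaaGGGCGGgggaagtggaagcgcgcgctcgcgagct

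Promoter sequence was at hand for 9 members. A member was counted if any of its promoters held the motif, whereas the background is a share of promoters. SRSF7 and SRSF11 had more than a single promoter, which favours the member counts. TGACG stood in the 250 bases before the start of 5 of them (SRSF1, SRSF3, SRSF5, SRSF7 and SRSF11) and in 21.2% of 35116 promoters. GGGCGG stood in 3 (SRSF4, SRSF6 and SRSF7) against 42.6%. TATAAA stood in 3 (SRSF3, SRSF7 and SRSF11) against 10.7%, GCGCATGCG in 2 (SRSF7 and SRSF10) against 1.64%, and CCGGAAG in 2 (SRSF4 and SRSF5) against 8.52%. CCAAT was seen in SRSF3 alone, against 32.0% of promoters, and CACGTG in no member, against 6.34%. In SRSF7 the TGACG and GCGCATGCG letters overlap. No single motif was shared by all 9.

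The second set gives the last 30 bases of the canonical GENCODE transcript (GRCh37) of 5 members whose peaks ran far past the end. Capitals mark AATAAA or, failing it, ATTAAA, the hexamers that most often signal cleavage and polyadenylation.
SRSF1, chr17:56078280-56078309: gagctaATTAAAtgtgaaccctgaccagaa
SRSF3, chr6:36573348-36573377: gtacttaataatacagtatttagattctca
SRSF5, chr14:70238693-70238722: tgttattgatAATAAAatattataaaacta
SRSF7, chr2:38970741-38970770: acAATAAAtctgcagagattgaacaaataa
SRSF9, chr12:120899475-120899504: gtttagaaatatattttaaatgtttagtaa

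SRSF3 and SRSF5 lie on the plus strand and the other 3 on the minus strand. Of 9 members searched, 5 had AATAAA in this window and SRSF1 had ATTAAA. Over 19881 canonical coding transcripts the shares were 56.6% for AATAAA and 15.3% for ATTAAA. SRSF3, SRSF9 and SRSF10 showed neither hexamer in these 30 bases.

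The canonical transcripts of SRSF2, SRSF3, SRSF5, SRSF6, SRSF7, SRSF9 and SRSF10 lay under RNAPII peaks over most of their length in every list. All 10 members had a peak in the shRNA5, shRNA7, no doxycycline and doxycycline lists, and 9 had a peak in the control shRNA list. Among all coding genes, 22.7% had a peak with the control shRNA, 52.6% upon shRNA5, 60.6% upon shRNA7, and 64.2% and 53.7% in the untreated and treated T-REx cells. The missing member was SRSF1, which controls splice site choice and is a known proto-oncogene. Its nearest control shRNA peaks ended 29777 bp downstream and began 77222 bp upstream of the start. SRSF1 was not alone in this, and the doubt about unlisted peaks applies to it. Of 9115 genes with a peak in each of the other 4 lists, 4820, or 52.9%, had none in the control shRNA list.

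The median share of the gene under a peak, with SRSF1 entered as 0 where it had none, was 53.5% with the control shRNA, 100% upon shRNA5 and 100% upon shRNA7. Without and with doxycycline it was 90.9% and 96.1%. Over all coding genes with a peak in the list in question, the medians were 5.6%, 9.3%, 14.4%, 4.4% and 3.7% in the same order. Gene length enters these shares, and the genes were not matched for it. For canonical transcripts the members' medians were 88.3%, 100%, 100%, 99.4% and 100%. The plot of covered shares shows a block of genes at the ceiling and a few that changed from list to list.

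SRSF2, SRSF3 and SRSF7 were covered over 100% of their length in all 5 lists, each by a single unbroken peak. SRSF2 takes part in the definition of exons through enhancers, and SRSF3 and SRSF7 are adaptors for mRNA export. In SRSF5, an SR protein first met in regenerating liver, the canonical transcript was likewise covered over 100% in every list. The whole SRSF5 gene was covered over 12 to 12.9% only, because no peak touched the far upstream start of its long transcript. SRSF6 was whole in the hairpin arm and covered over 90.4% and 92.2% without and with doxycycline, in 2 pieces in both lists.

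SRSF10, a splicing repressor when dephosphorylated, was covered over 77.4% with the control shRNA by 2 peaks that left its middle open. Upon shRNA5 and upon shRNA7 a single peak of 22911 and 22831 bp spanned the whole gene. Without doxycycline 5 peaks covered 91.4% of SRSF10, and with doxycycline 1 peak of 18970 bp covered all of it. SRSF9, which is close to SRSF1 in sequence, had its canonical transcript covered over 70.2% with the control shRNA, 100% upon shRNA5, 100% upon shRNA7, and 91.9% and 87.1% without and with doxycycline. In the control shRNA list the SRSF9 peak stopped short of the start and no peak summit lay there.

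The longest canonical transcripts, SRSF4 and SRSF11, were covered in patches. SRSF4 was covered over 20.5%, 69.9% and 32.3% with the control shRNA, shRNA5 and shRNA7, and over 50.2% and 53.8% without and with doxycycline. Its peaks numbered 3, 5 and 2 in the hairpin arm and 17 in each doxycycline list. SRSF11, whose protein contacts U2AF, was covered over 29.6%, 76.7% and 84.7% in the hairpin arm and over 24.9% and 36.5% in the doxycycline arm, by 5, 10, 8, 14 and 15 peaks. The short members held 1 long peak in most lists, whereas coverage of SRSF4 and SRSF11 was broken into several.

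**Figure D1:**
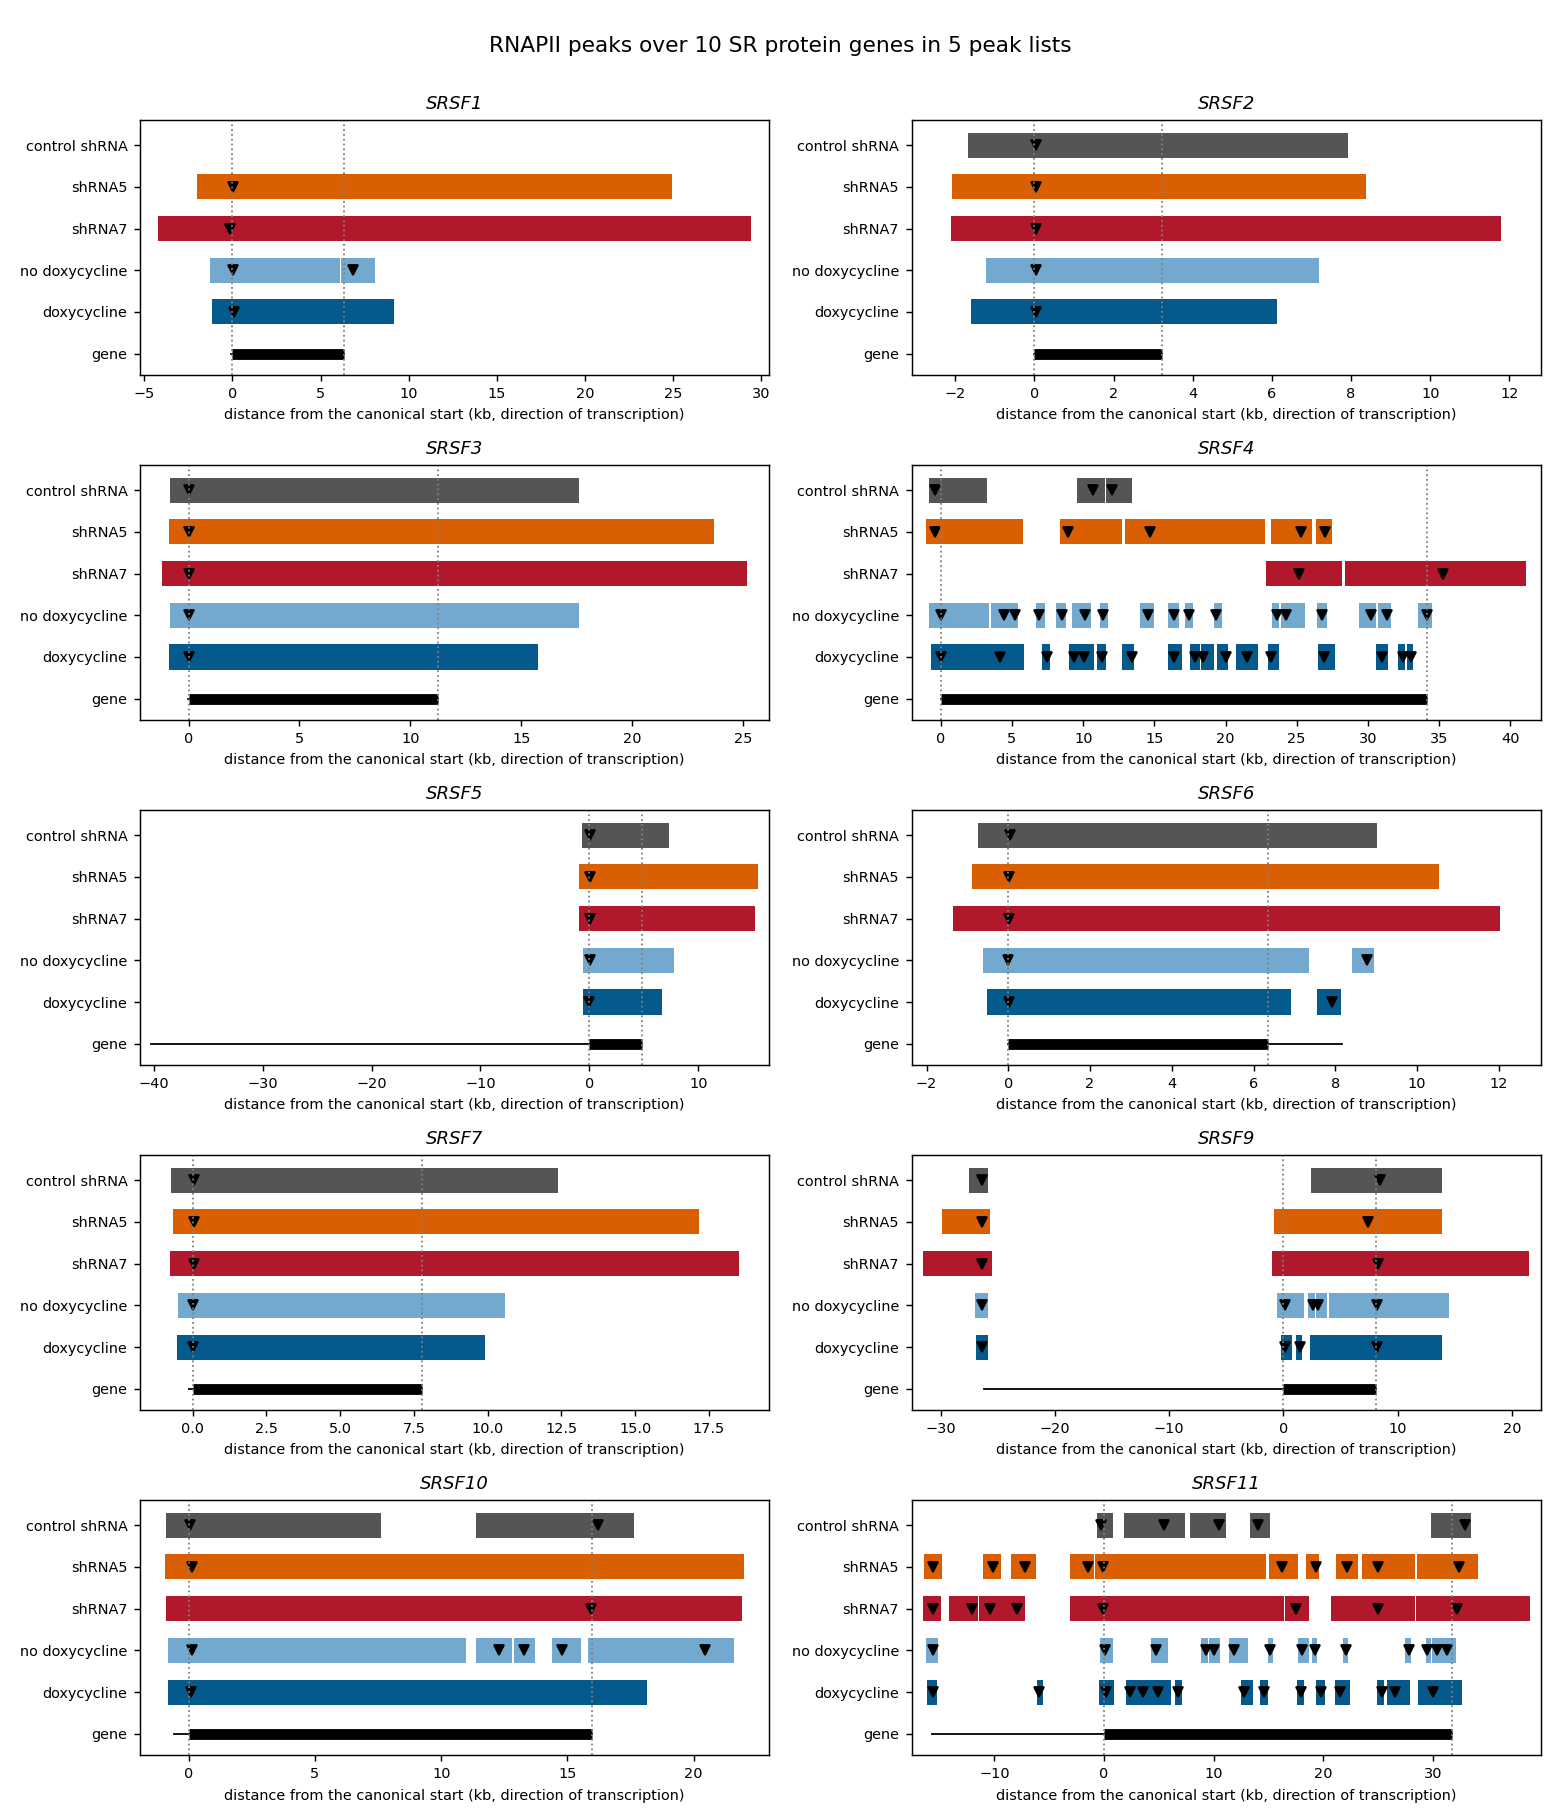
RNAPII peaks over each member in the 5 lists, drawn to scale against distance in kb from the start of the canonical transcript in the direction of transcription. Bars are peaks, triangles their summits, the thick black line the canonical transcript, the thin line the whole annotated gene and the dotted lines the canonical start and end; SRSF3 shows 1 peak per list from the start to beyond the end, SRSF4 lacks a start peak upon shRNA7.

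**Figure D2:**
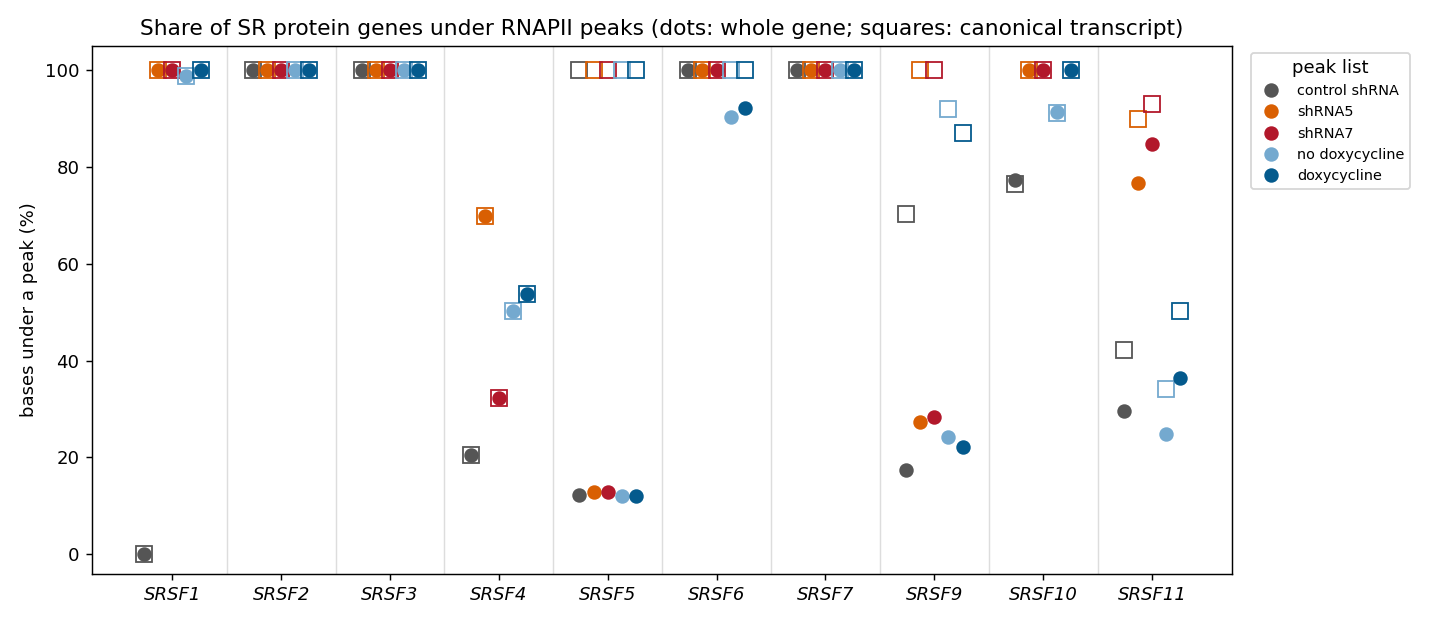
Share of each member's bases under a peak, in percent, by peak list (colour), for the whole gene (dots) and for its canonical transcript (squares). SRSF2, SRSF3 and SRSF7 sit at 100% in all 5 lists, SRSF1 at 0% in the control shRNA list and at 98.8 to 100% in the others, and SRSF4 and SRSF11 vary among all 5.

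In bases covered, 4 of the 10 members lay whole under a peak with the control shRNA. Counting genes with a peak in either list, 3 of 10 members (SRSF1, SRSF4 and SRSF11) had at least 1.5-fold more covered bases upon shRNA5 than with the control shRNA, beside 87.6% of all coding genes. Upon shRNA7 4 of 10 did (SRSF1, SRSF4, SRSF9 and SRSF11), beside 92.4%. No member had 1.5-fold fewer in either comparison, where the shares of all genes were 0.385% and 1.79%. Both counts of gains lay under these shares, but the sets are not alike. A gene with no control shRNA peak counts as having more, and among the members only SRSF1 had none. Over all coding genes, 4552 of 10642 for shRNA5 and 4384 of 12423 for shRNA7 had a peak in both lists. With doxycycline no member passed 1.5-fold in either direction, beside 7.98% of genes with more and 47.9% with fewer covered bases than without it. SRSF11, with 1.44-fold more, came nearest. SRSF4 upon shRNA7 lay just inside the limit at 1.54-fold, as did SRSF9 at 1.54-fold, and SRSF9 upon shRNA5 just outside at 1.49-fold.

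Past the ends of the genes the lists did differ. A peak that ran more than 500 bp beyond the annotated end was found at 8 of 9 members with a peak for the control shRNA, 9 of 10 for shRNA5, 10 of 10 for shRNA7 and 8 of 10 in each doxycycline list. Among all coding genes with a peak the shares were 31.0%, 39.4%, 50.6%, 18.6% and 17.3%. The median reach of the 10 members, with SRSF1 again entered as 0 in the control shRNA list, was 2.09 kb with the control shRNA, 5.9 kb upon shRNA5 and 9.47 kb upon shRNA7, and 2.88 kb and 2.15 kb without and with doxycycline. All coding genes whose peaks passed the 500 bp limit had median reaches of 1.96, 2.47, 3.36, 1.06 and 1.15 kb in the same 5 lists.

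SRSF3 and SRSF6 have no convergent coding gene within 100 kb downstream. The SRSF3 peak (gene at chr6:36562130-36573377) reached 6.37 kb past the end with the control shRNA, 12.5 kb upon shRNA5, 13.9 kb upon shRNA7, and 6.36 kb and 4.51 kb without and with doxycycline. No other coding gene or long non-coding RNA lay under it in any list. SRSF6 (chr20:42086533-42094686) reached 0.877, 2.39 and 3.87 kb in the hairpin arm and 0.782 kb without doxycycline. With doxycycline its last peak stopped inside the gene. A coding gene model without a symbol, ENSG00000288000, starts inside SRSF6 on the same strand, runs far past its end and lay under the SRSF6 peaks in every list. The value without doxycycline rests on a separate peak of 10 tags. In both genes the order within the hairpin arm was control shRNA, shRNA5, shRNA7, and the doxycycline list had a shorter reach than the untreated one.

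At 5 members a coding gene on the opposite strand ends within 5 kb of, or inside, the member's end, so that RNAPII from either strand may be counted in the same peak. Such a neighbour was present for 27.7% of all coding genes and for 39.5% of 4295 with a peak in all 5 lists. SRSF7 (chr2:38970741-38978636) faces GALM, an enzyme of galactose metabolism. Its peak reached 4.62, 9.38 and 10.8 kb past the end with the control shRNA, shRNA5 and shRNA7, and 2.83 and 2.15 kb without and with doxycycline. SRSF5 (chr14:70193617-70238722) faces SLC10A1, a bile acid transporter of liver, and its peaks reached 2.44, 10.6, 10.4, 2.93 and 1.79 kb in the same order. The SLC10A1 gene was touched only by the shRNA5 and shRNA7 peaks of SRSF5. SRSF2 (chr17:74730197-74733415) lies opposite METTL23 at its end and MFSD11 at its start, and its peak reached 4.72, 5.17, 8.57, 3.97 and 2.91 kb. Upon shRNA7 it also touched JMJD6.

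SRSF10 (chr1:24290837-24307417) converges with PNRC2, whose end lies 885 bp away. The peaks over SRSF10 reached 1.66 kb with the control shRNA, 6.0 kb upon shRNA5, 5.95 kb upon shRNA7, and 5.64 kb and 2.16 kb without and with doxycycline. The value without doxycycline rests on a separate peak, whose summit lay 4491 bp past the end, inside PNRC2. SRSF9 (canonical transcript chr12:120899475-120907551) overlaps the end of GATC, a subunit of the mitochondrial glutamyl-tRNA amidotransferase. Peaks over SRSF9 reached 5.82 kb with the control shRNA, 5.8 kb upon shRNA5, 13.4 kb upon shRNA7, and 6.44 kb and 5.76 kb without and with doxycycline. The shRNA5 value of SRSF9 was thus 20 bp short of the control one.

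SRSF1 (chr17:56078280-56084707) had the longest reach of the members upon shRNA5 and upon shRNA7. A single peak of 26931 bp with 4134 tags upon shRNA5 reached 18.6 kb past the end, and one of 33639 bp with 5564 tags upon shRNA7 reached 23.1 kb. Both ran into VEZF1, a zinc finger gene that lies 12660 bp past the SRSF1 end on the same strand, and signal of the neighbour cannot be told apart from that of SRSF1. The same holds in all 4 lists for ENSG00000266086, a coding gene model without a symbol that starts inside SRSF1 on the same strand and runs past its end. Without and with doxycycline the SRSF1 reaches were 1.78 and 2.83 kb. The SRSF4 peaks ended within the gene or at most 356 bp beyond it except upon shRNA7, where the reach was 6.98 kb. The summit of that shRNA7 peak lay 1151 bp past the end, inside ENSG00000225750, a long non-coding RNA on the same strand. Its signal cannot be told apart from that of SRSF4. SRSF11, at 1.74, 2.43 and 7.11 kb in the hairpin arm, had 0.395 and 0.919 kb in the doxycycline arm. Upon shRNA7 its last peak also touched ANKRD13C, a coding gene on the opposite strand.

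**Figure D3:**
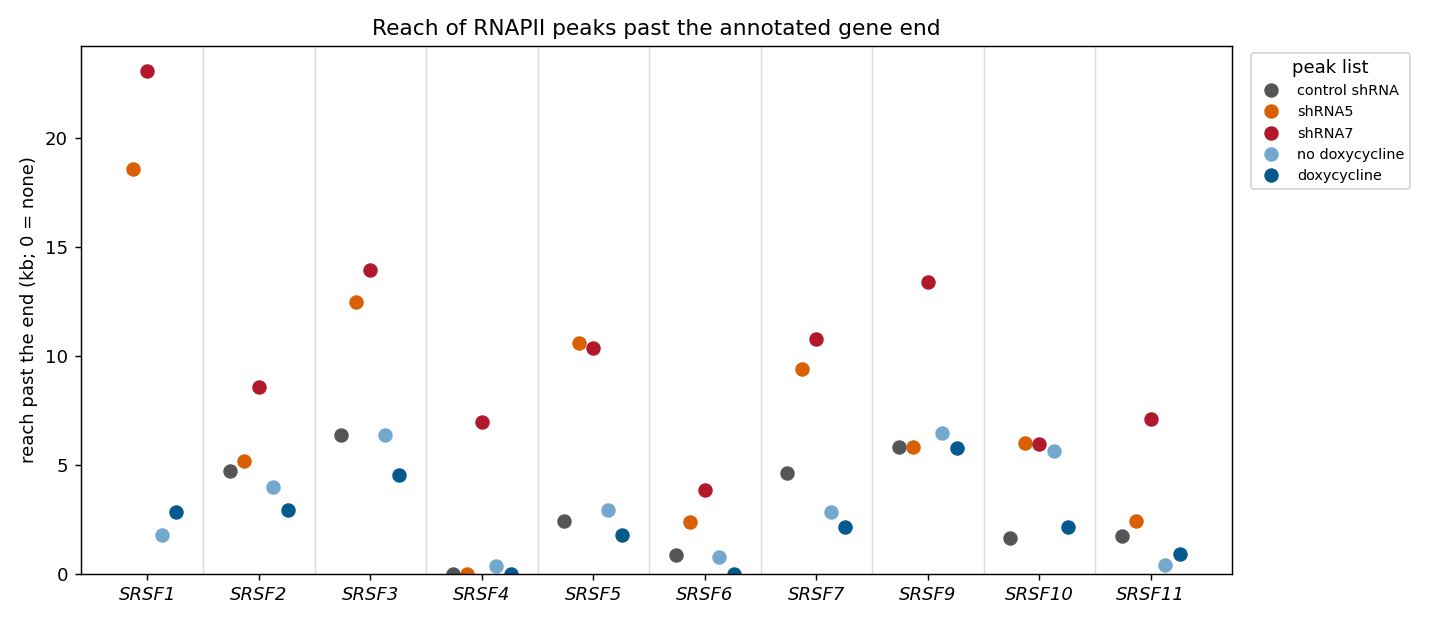
Reach of the peaks past the annotated end of each member, in kb, by peak list (colour), 1 dot per library, with 0 where the peaks end inside the gene and no dot for SRSF1 with the control shRNA, where no peak was listed. Upon shRNA7 every member reached between 3.87 and 23.1 kb.

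Setting the lists of an arm side by side, a reach longer by at least 500 bp was counted among genes with a peak in both lists. Upon shRNA5, 6 of 9 members reached farther than with the control shRNA and 0 less far, by a median of 1509 bp. Among all coding genes 47.3% reached farther and 0.549% less far, with a median of 344.5 bp. Upon shRNA7, 9 of 9 members reached farther and 0 less far, by a median of 6140 bp, beside 65.0% and 1.00% of all genes and a median of 1905.5 bp. These hairpin comparisons share the control shRNA list, and reaches that ran into a neighbouring gene are included. With doxycycline, 7 of 10 members reached less far than without it and 2 farther (SRSF1 and SRSF11), with a median difference of -733.5 bp. With a difference of at least 1 kb asked for, these counts were 4 and 1. Of all genes, 10% reached less far and 5.82% farther with doxycycline, and the median was 0.

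Most coding genes have no reach to lengthen or shorten, so the same counts were taken over genes that passed 500 bp in the reference list. There 6 of 8 members reached farther upon shRNA5, beside 67.3% of 1409 genes, and 8 of 8 upon shRNA7, beside 86.9% of 1309 genes. With doxycycline 7 of 8 reached less far, beside 47.3% of 2253 genes. Read this way, the hairpin counts of the members lay near the background. The size of the shift was 2928 bp in the members and 1201 bp over all these genes upon shRNA5, and 5755 and 2906 bp upon shRNA7. With doxycycline it was -923 and -407 bp.

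The number of peaks per list, given above, moved with these counts. With the lists of each arm cut to the same number of peaks, strongest first, 6 of 9 members reached farther upon shRNA5 and 9 of 9 upon shRNA7. With doxycycline 6 of 10 reached less far. The cut removes whole peaks and leaves the edges of those kept as called. It therefore cannot show whether list size or depth lengthened a peak. The study's methods describe a similar number of reads for the libraries that were compared. The lists hold no library totals, and the part of depth in the differences was not tested.

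The peaks over members were long even for their lists. The longest 1% of peaks began at 12625, 14332 and 18843 bp in the control shRNA, shRNA5 and shRNA7 lists and at 4638 and 5960 bp without and with doxycycline. A peak of that class lay over 2 members with the control shRNA, 7 with shRNA5, 6 with shRNA7 and 8 in each doxycycline list. The shares of coding genes with a peak that held such a peak were 2.05%, 3.94%, 5.70%, 5.11% and 4.31%. The SRSF3 peak ranked 10 by length in the control shRNA list and 12 without doxycycline. The SRSF10 peak ranked 16 by length with doxycycline, and the SRSF1 peak 18 upon shRNA5.

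Tags in the peaks are raw counts and carry the depth of their library. Over the 10 members they summed to 9262 with the control shRNA, 23702 upon shRNA5 and 33200 upon shRNA7, and to 8073 and 10045 without and with doxycycline. As a share of all tags in peaks this was 1.1%, 0.627%, 0.496%, 0.557% and 0.652%, while the members held 0.0591 to 0.322% of the peaks. SRSF3 led the members by tags in 4 lists and SRSF1 upon shRNA5. The SRSF3 peak held 2249, 3869, 5850, 1587 and 1715 tags in the 5 lists and ranked 9, 10, 14, 15 and 16 among all peaks. SRSF1 ranked 6 upon shRNA5.

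Per kb of peak, SRSF2 was highest of the members upon shRNA5 and upon shRNA7, with 196 and 254 tags, and held 104 with the control shRNA and 112 and 128 in the doxycycline arm. SRSF3 led with the control shRNA at 122 tags per kb, and SRSF7 led without and with doxycycline at 113 and 144. SRSF4 and SRSF11 were lowest in all 5 lists, at 27.9 to 67.4 tags per kb. Between lists, tags per kb over members with a peak in both rose by a median of 1.31-fold upon shRNA5, 1.77-fold upon shRNA7 and 1.29-fold with doxycycline. All coding genes had medians of 1.25, 1.41 and 1.27-fold. SRSF2 had the largest member value in both hairpin comparisons, 1.87 and 2.44-fold, and the smallest with doxycycline, 1.14-fold. The libraries' depths enter these ratios.

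**Figure D4:**
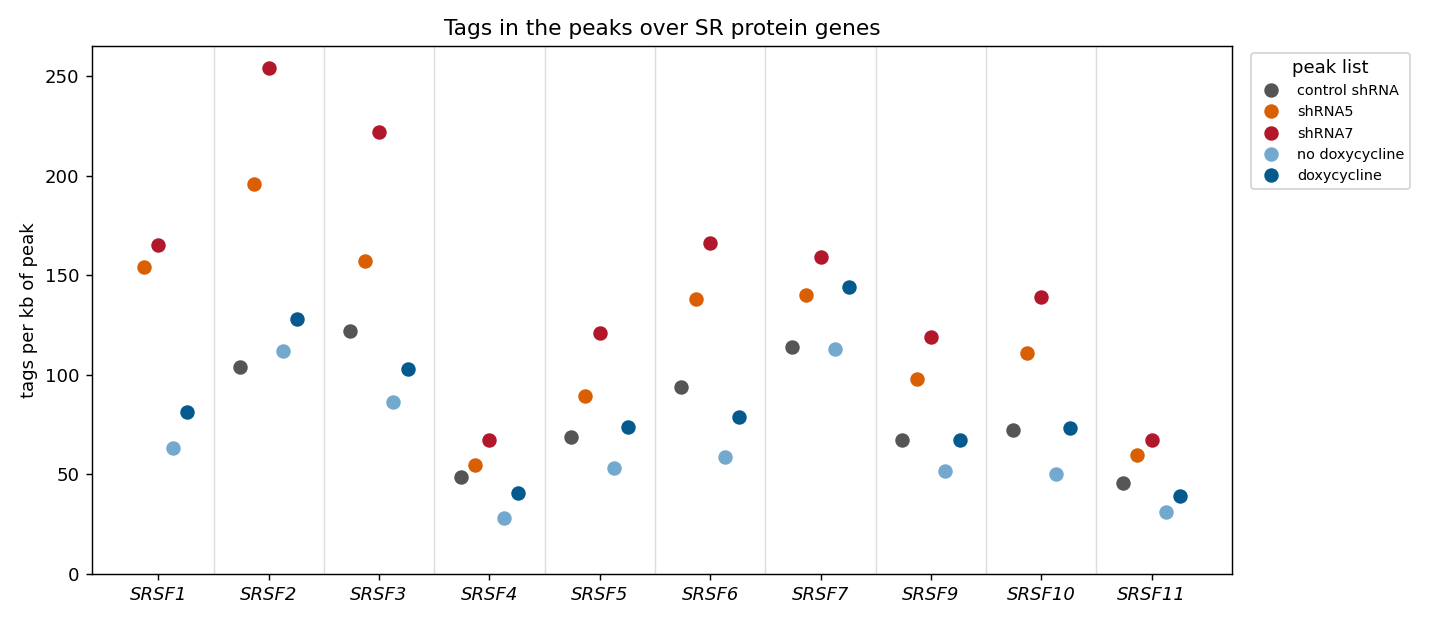
Tags per kb of peak over each member, by peak list (colour), 1 dot per library, as raw counts that were not scaled for depth. SRSF2 reached 254 tags per kb upon shRNA7, and SRSF4 and SRSF11 stayed at or under 67.4.

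Fold enrichment, the peak's height over its local background, ordered the members differently. The SRSF7 peak had the highest fold enrichment of its whole list without doxycycline, at 344.09, and again with doxycycline, at 150.55. It ranked 13 upon shRNA5, 53 upon shRNA7 and 129 with the control shRNA. GEMIN6, which starts just upstream of SRSF7 on the opposite strand, lay under this peak in every list. Signal of GEMIN6 cannot be told apart from that of SRSF7 there. SRSF2 ranked 9 without doxycycline and 14 with it, at 265.28 and 120.01. SRSF4 and SRSF11 lay far lower, at 13.82 to 39.11 and at 9.21 to 38.95 for their largest peaks.

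The significance score put SRSF9 first among the members upon shRNA5. Its main peak scored 3187.49 there, rank 2, although it ranked 157 by tags and 717 by fold enrichment. SRSF2, at 3100.0, had a score that 105 peaks of the list held. For SRSF3 the score went the other way, with 107.59 and rank 1975 in the control shRNA list for a peak that ranked 9 by tags.

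The summit of a peak marks its highest point. In SRSF2, SRSF3, SRSF5, SRSF6 and SRSF7 the summit of the largest peak lay between -12 and 63 bp from the canonical start in all 5 lists. Its position moved little between libraries, over 8 bp in SRSF2 and 5 bp in SRSF3, where it lay 34 to 39 bp downstream of the start. It moved over 38 bp in SRSF7, 47 bp in SRSF6 and 49 bp in SRSF5. For 2127 coding genes with a summit within 500 bp of the start in all 5 lists, the median range was 141 bp (quartiles 71 and 295 bp). The median summit of all genes lay 7 to 30 bp from the start, and that of the members 27 to 34 bp. The start summit of SRSF4 ranged from -445 bp with the control shRNA to 4 bp with doxycycline, and that of SRSF11 from -257 to 209 bp.

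The summit of the largest peak lay elsewhere for SRSF9 in all 5 lists and for SRSF4 and SRSF10 upon shRNA7. In SRSF4 it lay past the end of the gene. For SRSF11 it lay 5428 bp downstream of the start with the control shRNA and 29944 bp with doxycycline. The main SRSF9 peak had its summit at the end of the gene, 346 bp past it with the control shRNA, 195 bp upon shRNA7, and 75 bp and 149 bp without and with doxycycline, in the region shared with GATC. Upon shRNA5 it lay 637 bp before the end. A summit near the SRSF9 start was listed only in the doxycycline arm, 121 and 126 bp downstream, where the start had a small peak of its own with 81 and 51 tags, and this peak also overlapped DYNLL1, which starts there on the opposite strand. The far upstream peak in the SRSF9 span, with 78 to 456 tags, had its summit inside DYNLL1, a dynein light chain gene. This peak lay at the upstream start of the SRSF9 span and at the start of the long non-coding RNA NRAV. Upon shRNA5 and shRNA7 it ran past the end of DYNLL1. In SRSF10 the summit lay 37 to 114 bp past the start in 4 lists, and upon shRNA7 at the last exon, 43 bp before the end, where it faces PNRC2.

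SRSF4 upon shRNA7 stood apart. No peak was listed over its start, which carried a peak in the other 4 lists, with 207, 500, 180 and 238 tags. The nearest shRNA7 peaks began 22872 bp into the gene and 8343 bp upstream of it. SRSF4 did have 2 peaks elsewhere upon shRNA7. Of 4475 coding genes with a peak in each of the other lists, 180, or 4.02%, had none at all upon shRNA7. Among the genes related to splicing TRA2B, SNRNP70, HNRNPC and SYNCRIP were such genes, and SRSF4 was not. Genes that lacked only a start peak were not counted. A peak missing from a list is not evidence that RNAPII was absent, as the signal itself was not analysed here. SRSF11 had no peak at its upstream start, shared with LRRC40, in the control shRNA list, and had one there in the other 4, with 39 to 125 tags.

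Decay exons here are stretches of exons, in transcripts annotated for nonsense-mediated decay, that lie in no exon of a coding transcript. Stretches that also lie in exons of retained intron or other non-coding transcripts were kept in. Decay exons so defined make up 4998 bp in 9 of the members. They were under a peak over 80.4% of their bases with the control shRNA, 100% upon shRNA5, 85.5% upon shRNA7, and 86.3% and 87.4% without and with doxycycline. The members' whole spans, 214436 bp, were covered over 35.4%, 60.1%, 56.1%, 43.8% and 47.4%. These pooled shares weigh the members differently: SRSF7 holds 1259 bp of such exons in 7.9 kb, SRSF11 298 bp in 47.4 kb. In SRSF4 such exons were covered over 18.8%, 100%, 0%, 5.1% and 53.0% in the same order. The whole SRSF4 gene was covered over 20.5%, 69.9%, 32.3%, 50.2% and 53.8%. A preference for such exons was not tested. In SRSF7 these exons make up 15.9% of the gene and lay under a peak throughout. Upon shRNA7 only the SRSF4 exons of this kind were outside peaks. Away from the start, no summit of a largest peak lay in an exon of decay or retained intron transcripts outside coding exons, except that of SRSF9 upon shRNA5.

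The partners of the SR proteins were covered less. Of 20 related genes, 16 had a peak with the control shRNA, 19 upon shRNA5, 18 upon shRNA7 and 19 in each doxycycline list, and their median covered shares were 20.6%, 70.8%, 61.4%, 46.0% and 56.9%. Of 20 genes for hnRNP proteins, which often oppose SR proteins at splice sites, 18, 20, 18, 20 and 20 had a peak, with medians of 67.8%, 98.3%, 100%, 89.0% and 92.7%. The median reach past the end was 0.145, 2.36, 2.82, 0.832 and 0.486 kb in the related genes and 1.16, 4.47, 6.38, 1.67 and 1.74 kb in the hnRNP genes. With doxycycline 5 of 19 related genes reached less far and 1 farther, and 4 of 20 hnRNP genes less far and 7 farther. These differences between lists of genes were not tested, and the lists were not matched for gene length.

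Of the remaining SR genes, SRSF8, a close relative of SRSF2, had no control shRNA peak and was covered over 84.8%, 100%, 49.6% and 46.5% in the other lists. SRSF12 had a peak only upon shRNA7, over 13.1% of the gene. Of the kinases, CLK1 was covered over 70.0 to 100%, SRPK1 over 4.3 to 62.9% and SRPK2 over at most 5.9%. TNPO3 was covered over 1.0 to 7.0%. TRA2A, an SR-like splicing activator, was covered over 43.7 to 74.5%. Its partner TRA2B was covered over 96.8 to 100% in 4 lists and had no peak upon shRNA7. Among hnRNP genes 11 of 20 were covered whole upon shRNA7, and HNRNPC and SYNCRIP not at all.

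Over 4286 other coding genes with a peak in all 5 lists, those nearest to the members' median shares, by Euclidean distance in percentage points over the 5 lists, were RANBP1 (4.27), SLFNL1 (5.19), RPS21 (7.99), RPS26 (9.07) and RABGGTB (10.7). RANBP1, a cofactor of the nuclear transport GTPase Ran, was covered over 54.1%, 100%, 100%, 88.2% and 99.4%. All of these were covered over 47.4 to 57.4% with the control shRNA and over 100% upon shRNA5 and shRNA7.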

How the data were processed

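Reads from the 5 RNAPII and 4 IgG libraries (1 library per group) were aligned by the authors to hg19 with Bowtie 0.12.7, after base calling with CASAVA 1.8. Peaks were called by the authors with MACS 1.4.2 for each RNAPII library against IgG. The deposited lists give a tag count per peak, not normalised, a significance score (10 times the −log10 of the p-value), a fold enrichment (ratio of peak height to local background) and a false discovery rate in percent from the authors. Peak positions count from 1, and all columns were used as deposited.

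Genes were taken from GENCODE 44 lifted to GRCh37, which may be more recent than the authors' annotation. Peaks were assigned by at least 1 bp of overlap with the gene widened by 500 bp. Covered bases were counted in the gene, and reach was the farthest peak edge past its annotated end. The calls were 500 bp past the end, 1.5-fold covered bases and, added after seeing the data, 500 bp of difference in reach. The measures were tested on simulated data. Python 3.11.15, numpy 2.4.6, pandas 2.3.3 and scipy 1.17.1 were used.

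Named genes were the members, SRSF8, SRSF12, SRPK1, SRPK2, CLK1, TNPO3, TRA2A, TRA2B, the hnRNP genes with the highest and lowest share upon shRNA7 (ties counted), neighbours under a member's peak and the 5 most similar genes. SNRNP70 was named after its values were seen. The members and lists were chosen with earlier results of these data known. With single libraries no test between conditions was possible, and no p-value is given. The members are a fixed set of genes and not a random draw, so counts of members carry no interval.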

Additional observations from a re-analysis of the deposited data

How the results depend on the processing

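No paired analysis was possible because only 1 library stands in every group, so none could be left out either. Of 211 recomputed values over 12 settings, 202 stayed within 1.5 times the reported count or within the spread of the members. For the median covered shares that spread was wide, 12.3 to 100% with the control shRNA. Values of 37.6 to 88.3% there, beside the main 53.5%, thus counted as unchanged, and the limit says little about these medians. With a reach of over 2 kb, 5 members passed the end with the control shRNA. With lists cut to equal length, 1 member gained 1.5-fold covered bases upon shRNA5 and 1 with doxycycline. With a limit of 2-fold, 2 gained upon shRNA7. A significance score of at least 100 and merging of peaks under 1 kb apart each gave 1 gain with doxycycline. Longer reaches with doxycycline numbered 1 with a fold enrichment of at least 10 and 1 with a difference of at least 1 kb, and shorter ones 4 with that difference. The cause of these shifts was not tested. The counts of longer reach stayed at 5 to 7 upon shRNA5 and 8 to 9 upon shRNA7 over the alternatives. The settings on the canonical transcript and on differences in reach were chosen after seeing the data. The lists hold no library totals. The study's methods describe similar read numbers within an arm, and depth was not corrected for in any comparison of peak number, length or tags.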
